A study of Mus musculus with 6 samples.

Results

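RNA precipitated with Ago2, the RISC protein that carries the miRNA, was examined for 10 genes that shorten or bind poly(A) tails. These were Cnot1, Cnot2, Cnot3, Cnot4, Cnot6, Cnot6l, Cnot7, Pan3, Pabpc1 and Btg2. They belong to the CCR4-NOT deadenylase, to the PAN2-PAN3 deadenylase or to the proteins that bind poly(A) or the deadenylases, and a peak was assigned to a member when it overlapped at least 1 bp of an annotated exon (GENCODE M21, GRCm38, the mm10 build). All 10 carried an exonic peak, out of 13241 genes of any kind with one. Overlapping peaks of the 5 libraries with narrow peaks were merged into intervals, and 84 of the 38946 exonic intervals belonged to the members.

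The libraries came from MSC, primary muscle progenitors of the mouse, which were differentiated for 30 h, transfected with miR-222 or with a siGFP control duplex and lysed 16 h later. The labels give 10 nM of duplex, and the study's methods give another concentration. Experiment 1 comprised control-IP 1, control-IP 2 and miR-222-IP 1, whereas experiment 2 comprised control-IP 3, control-IP 4 and miR-222-IP 2, so that each experiment had 1 miR-222-IP. All 6 received a duplex, and mouse strain and age are not given in the sources used here. miR-222-IP 2 is labelled miR222 by its condition, although its title reads miR22. Nothing in the labels says that libraries of an experiment came from separate cultures, so p-values measure the spread between these libraries, which may be technical.

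miRNA-loaded Ago2 recruits GW182 proteins, which in turn bring PABP, CCR4-NOT and PAN2-PAN3 to a target mRNA. The deadenylases then remove the poly(A) tail, and the mRNA is decapped and degraded. Cnot1 is the scaffold of CCR4-NOT, Cnot2 and Cnot3 form its NOT module, and Cnot4 is an E3 ubiquitin ligase that associates with it. Cnot6 and Cnot6l are its CCR4-type catalytic subunits and Cnot7 is a CAF1-type catalytic subunit. Pan3 is the adaptor of the Pan2 nuclease, Pabpc1 is the main cytoplasmic poly(A)-binding protein, and Btg2 is an antiproliferative protein that binds CAF1-type deadenylases and is induced as myoblasts leave the cell cycle. The values below show where peaks were called over mRNAs of these genes in RNA precipitated with Ago2. All libraries were IPs, so without an input library Ago2-bound mRNA and background mRNA cannot be told apart. Per the study's methods, cDNA was fragmented after amplification, so a peak does not place Ago2 at its position.

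Each deposited value is the −log10 p of a peak, called score here. A score rises with enrichment and with the depth of a library, so it is not a read count, and a ratio of scores is not a fold change in reads. No read counts were used and the depth is unknown. Scores of different genes are not compared as levels of RNA. Scores are given as deposited unless called scaled. As deposited, the miR-222-IP lay above every control-IP of its experiment in both experiments in 50.4% of all exonic intervals called in all 5 libraries. A missing peak says only that a score of 20 was not passed. In RNA of whole cultures, fewer cells of a type and less RNA per cell cannot be told apart.

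The seed of miR-222 is shared with miR-221, and its complement in a DNA strand is ATGTAGC. The mature sequences are given 5′ to 3′ from RefSeq (GRCm38.p6), with bases 2 to 8 in capitals.
mmu-miR-222-3p: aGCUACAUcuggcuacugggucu
mmu-miR-221-3p: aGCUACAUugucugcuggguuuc
Exons of 3 members, Btg2, Cnot1 and Pabpc1, held 4 such 7-mers on the strand of the gene, and 3 of these lay under a merged interval. They are shown with their flanks because they are the member sequences that the transfected miRNA could pair with through its seed. The capitals mark the 7-mer.
Btg2, 3'UTR, chr1:134075338-134075344, minus strand: ttttaataaaaATGTAGCagatcgtgtaa
Cnot1, coding, exon 35, chr8:95736420-95736426, minus strand: ggcaactgatgATGTAGCgcagatttatg
Pabpc1, coding, chr15:36599353-36599359, minus strand: gaagccactgtATGTAGCtttagctcagc
Cnot1, 3'UTR of a short isoform, no peak, chr8:95772641-95772647, minus strand: atgttttgcttATGTAGCccaggctggtc

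The 5 libraries held 28, 44 and 45 member peaks in control-IP 1, 2 and 4, and 59 and 82 in miR-222-IP 1 and 2, which makes 258. The whole lists held 10579, 20000, 17892, 21074 and 37762 peaks in the same order. Per 1000 exonic peaks the members therefore took 2.79, 2.33 and 2.60 in the control-IPs, against 2.90 and 2.27 in the miR-222-IPs, and the groups overlapped. Member scores ranged from 20.0 to 153, with medians of 27.9, 31.9 and 27.8 in the control-IPs and of 35.6 and 39.9 in the miR-222-IPs. Within each whole list these medians stood at percentiles 34.0, 41.1, 31.2, 49.1 and 49.3, so that the typical member peak lay below the middle of its list.

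**Figure D1:**
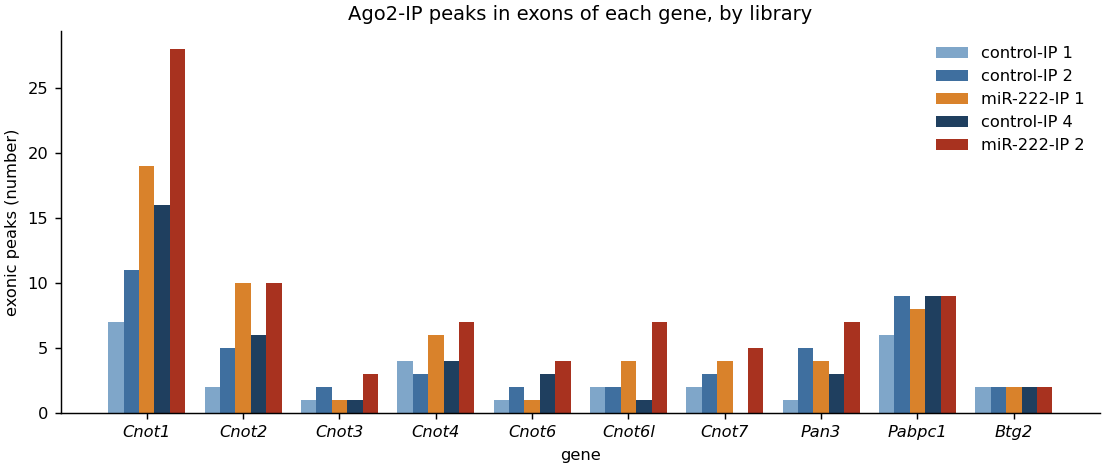
Number of exonic peaks of each gene (x axis) in 5 libraries, with control-IPs in blue and miR-222-IPs in orange and red. Cnot1 ranged from 7 peaks in control-IP 1 to 28 in miR-222-IP 2, Cnot7 had no peak in control-IP 4, and Btg2 had 2 in each of the 5 libraries.

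The members carried a median of 7 intervals, against 2 over the 10289 protein-coding genes with an exonic interval. Per kb of annotated exon the medians were 0.722 and 0.576. Cnot1 held 28 intervals, Cnot2 11, Pabpc1 9, Cnot4, Cnot6l and Pan3 7 each, Cnot7 5, Cnot3 and Cnot6 4 each, and Btg2 2. A peak in all 5 libraries was found in 22 member intervals (26.2%), against 19.8% of all exonic intervals. Of the 10 genes, 9 had at least 1 such interval, against 38.0% of the protein-coding genes. Cnot7 had none. The members were chosen with earlier results of these data known, so these contrasts describe the chosen genes and not their pathway. Among 39 further genes of deadenylation, decapping and poly(A) binding, 34 had an exonic peak and 15 had such an interval. Their median was 3 intervals per gene.

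Member peaks followed exons. Of 161 exons in the reference transcripts, 92 lay under a peak in at least 1 library and 25 in all 5. In coding exons without UTR there were 62 intervals with a median width of 336.5 bp, of which 61 contained a whole exon and the median exonic share was 55.1%. All intervals of that kind had a median width of 333 bp. The 16 intervals that touched a 3'UTR were wider, with a median of 897 bp, against 738 bp for all such intervals. In each of the 10 genes the interval nearest the 3' end touched the 3'UTR. The 5'UTR was touched in 6 genes, and the remaining intervals were coding.

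**Figure D2:**
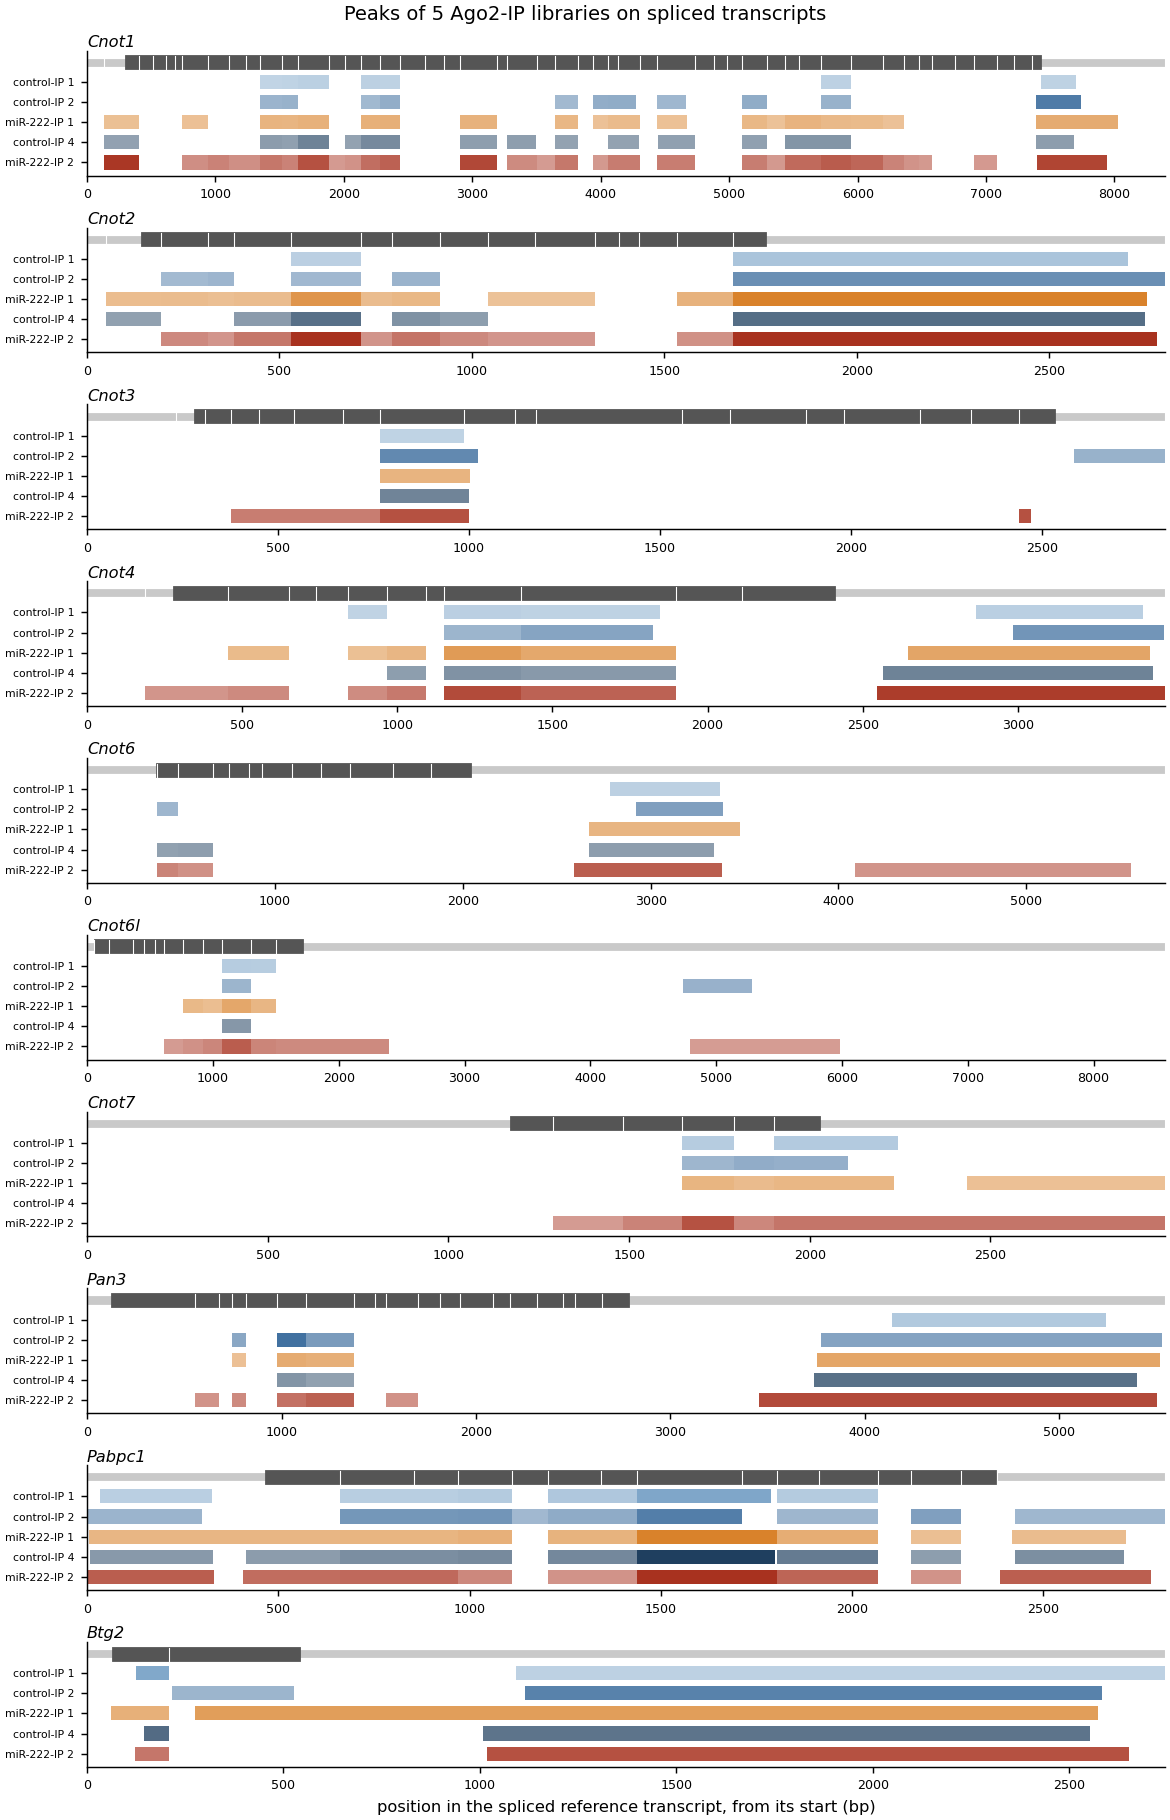
Peaks of 5 libraries on the spliced reference transcript of each gene, with position from the transcript start in bp on the x axis. The thick grey bar is the coding sequence, white lines are exon borders, and stronger colour is a higher score, up to 100. Taking the 5 libraries together, peaks lay over 31 of 49 exons of Cnot1 and 13 of 15 of Pabpc1, but 3 of 12 of Cnot6.

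Cnot1 (chr8:95719451-95807464) had peaks over 31 of its 49 exons in miR-222-IP 2. The other libraries had fewer, with 21 in miR-222-IP 1 and 7, 12 and 18 in control-IP 1, 2 and 4. The intervals in all 5 libraries were those at exons 11, 12, 16, 17 and 39 and the one at the last exon, 49, which runs from the stop codon into the 3'UTR (chr8:95719810-95720455). In that last interval the scores were 23.4 in control-IP 1, 87.3 in control-IP 2, 49.5 in miR-222-IP 1, 24.3 in control-IP 4 and 86.0 in miR-222-IP 2. The control-IPs of the 3'UTR thus spanned both miR-222-IPs, with control-IP 2 at the top. The highest score of Cnot1, 96.5, was at exon 2, over the start codon, in miR-222-IP 2, where miR-222-IP 1 had 23.5, control-IP 4 had 20.9 and the other control-IPs had no peak. At exon 11 the scores were 20.3, 26.0 and 25.5 in control-IP 1, 2 and 4, against 38.2 and 48.4 in the miR-222-IPs, and both miR-222-IPs lay above all 3 control-IPs. The intervals at exons 7, 9 to 10 and 39 are also annotated as 3'UTR, because shorter isoforms end there.

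The coding 7-mer in exon 35 of Cnot1, shown above, lay under peaks of 34.8 in control-IP 2, 33.4 in miR-222-IP 1, 22.2 in control-IP 4 and 44.0 in miR-222-IP 2. Control-IP 1 had no peak there. A siGFP library thus scored about as high at this site as a miR-222 library.

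Cnot2 (chr10:116485161-116581511), which pairs with Cnot3 in the NOT module, gave the highest score of any member. Its last interval covered 1038 bp of 3'UTR and the end of the coding sequence (chr10:116485165-116486351), with 47.8, 65.5 and 62.4 in control-IP 1, 2 and 4 and 116 and 153 in miR-222-IP 1 and 2. A second interval in all 5 libraries, at coding exon 6, had 27.4, 21.3 and 60.7 in the control-IPs and 76.0 and 114 in the miR-222-IPs. In both intervals the miR-222-IPs exceeded each of the 3 control-IPs. At exon 6 the control-IP of experiment 2 scored over those of experiment 1, and the scaled log2 ratio described below was 1.29 in experiment 1 and 0.32 in experiment 2.

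Cnot3 (chr7:3645268-3661109) had 4 intervals. The one at exons 8 to 9 had a peak in all 5 libraries, with 21.96, 71.9 and 44.7 in control-IP 1, 2 and 4 and 38.5 and 76.9 in the miR-222-IPs, so that the groups overlapped. The highest score, 77.4 in miR-222-IP 2, belonged to an interval at exon 18 of which 13.97% was Cnot3 exon. The peak of control-IP 4 merged into this interval, at 21.96, overlapped no Cnot3 exon. Leng1 overlaps exon 18 of Cnot3, and the lists carry no strand, so reads of the 2 genes cannot be told apart in the 2 intervals there.

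Cnot4 (chr6:35022065-35133724) had 3 intervals in all 5 libraries. Coding exon 9 had 27.7, 25.2 and 33.0 in control-IP 1, 2 and 4, against 68.5 and 81.4 in the miR-222-IPs. Coding exon 10 had 24.1, 42.7 and 27.4, against 52.8 and 63.5. At both exons the miR-222-IPs lay above all 3 control-IPs as deposited. After the scaling described below this held at exon 9, whereas at exon 10 miR-222-IP 2 at 42.6 lay below control-IP 2 at 43.9. The highest score was in the 3'UTR, where 929 bp of exon 12 (chr6:35022069-35022997) had 28.7, 59.0 and 45.9 in the control-IPs and 56.3 and 92.2 in the miR-222-IPs, and there miR-222-IP 1 fell below control-IP 2.

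The CCR4-type genes differed in where their peaks lay. In Cnot6 (chr11:49671503-49712723) the interval in all 5 libraries was 881 bp of 3'UTR (chr11:49673765-49674645), with 26.4, 48.3 and 24.5 in control-IP 1, 2 and 4 and 36.5 and 66.6 in the miR-222-IPs. In Cnot6l (chr5:96070333-96164171) it was coding exon 10 (chr5:96082756-96083174), with 33.6, 25.1 and 29.7, against 54.0 and 67.5. Both miR-222-IPs exceeded each control-IP there as deposited, but after scaling miR-222-IP 2 at 45.2 lay below control-IP 1 at 47.8. The 3'UTR of Cnot6l, 6850 bp over its isoforms, was 27.4% covered in miR-222-IP 2 and 7.96% in control-IP 2, and held no peak in the other 3 libraries. Such 3'UTR coverage in Cnot6 was 15.8%, 12.5% and 17.98% in control-IP 1, 2 and 4 and 21.8% and 61.1% in the miR-222-IPs.

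Cnot7 (chr8:40492540-40515847), the CAF1-type nuclease, had no peak in control-IP 4. Its highest score was at exon 4, with 33.0 and 23.9 in control-IP 1 and 2, 37.5 in miR-222-IP 1 and 75.6 in miR-222-IP 2. The interval of the last exon reached through the 3'UTR (chr8:40492612-40494232), with 36.4, 31.1, 34.0 and 49.4 in the same order. In experiment 1 the miR-222-IP lay between the control-IPs there.

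Pan3 (chr5:147430161-147548502) had its highest score in a control library, 98.0 at exon 6 in control-IP 2, where miR-222-IP 1 had 49.0, control-IP 4 had 31.4, miR-222-IP 2 had 52.6 and control-IP 1 had no peak. The 3'UTR interval (chr5:147546412-147548482), the widest of its 7, had a peak in all 5 libraries. Its scores were 39.4, 44.2 and 60.1 in control-IP 1, 2 and 4 and 55.1 and 81.7 in the miR-222-IPs, with miR-222-IP 1 below control-IP 4.

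Pabpc1 (chr15:36595661-36609668) was called most evenly, with 6 of its 9 intervals in all 5 libraries. The highest was at exons 8 to 9 (chr15:36598892-36599579), with 128, 84.3 and 129.5 in control-IP 1, 2 and 4 and 129 and 115 in miR-222-IP 1 and 2. This interval holds the miR-222 7-mer in the coding sequence, and the control-IPs spanned the miR-222-IPs. Exon 4 had 35.7, 59.2 and 39.5 in the control-IPs, against 42.9 and 35.2, and exons 6 to 7 had 42.04, 36.3 and 41.4, against 39.4 and 26.9. In both, miR-222-IP 2 was the lowest of the 5 libraries.

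The 5'UTR of Pabpc1 is known for A-rich stretches that its own protein binds. Among the 10 members this 5'UTR was the one with a peak over its longest run of A, which is printed with the run in capitals.
Pabpc1, 5'UTR, chr15:36608885-36608892, minus strand: taaaaaatccAAAAAAAAtctaaaaaat
Peaks over this run scored 28.1, 25.6 and 27.8 in control-IP 1, 2 and 4 and 35.6 and 66.8 in miR-222-IP 1 and 2, the miR-222-IPs being higher as deposited. After the scaling described below, miR-222-IP 1 at 33.6 lay between control-IP 1 at 39.9 and control-IP 2 at 26.3. Cnot3 has a run of 18 A in its 5'UTR, under no peak.

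Btg2 (chr1:134075170-134079120) has 2 exons and 2 intervals. The 3'UTR interval (chr1:134075147-134077696) had 25.1, 79.8 and 57.1 in control-IP 1, 2 and 4 and 65.4 and 76.5 in the miR-222-IPs, so that control-IP 2 exceeded both. The 7-mer near its 3' end is followed by A. It lay whole under the peaks of control-IP 1 at 25.1, control-IP 2 at 79.8 and miR-222-IP 2 at 76.5. The peak of miR-222-IP 1 began at position 134075339 and so overlapped all but the last base of the 7-mer, whereas that of control-IP 4 began at 134075360 and did not reach it. Peaks thus touched the site in both miR-222-IPs and in 2 of 3 control-IPs. The other interval, over exon 1, had 97.1 in control-IP 1, 64.4 in control-IP 4, 43.5 in miR-222-IP 1 and 48.6 in miR-222-IP 2, none in control-IP 2, and only 12.7% of it was exon.

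**Figure D3:**
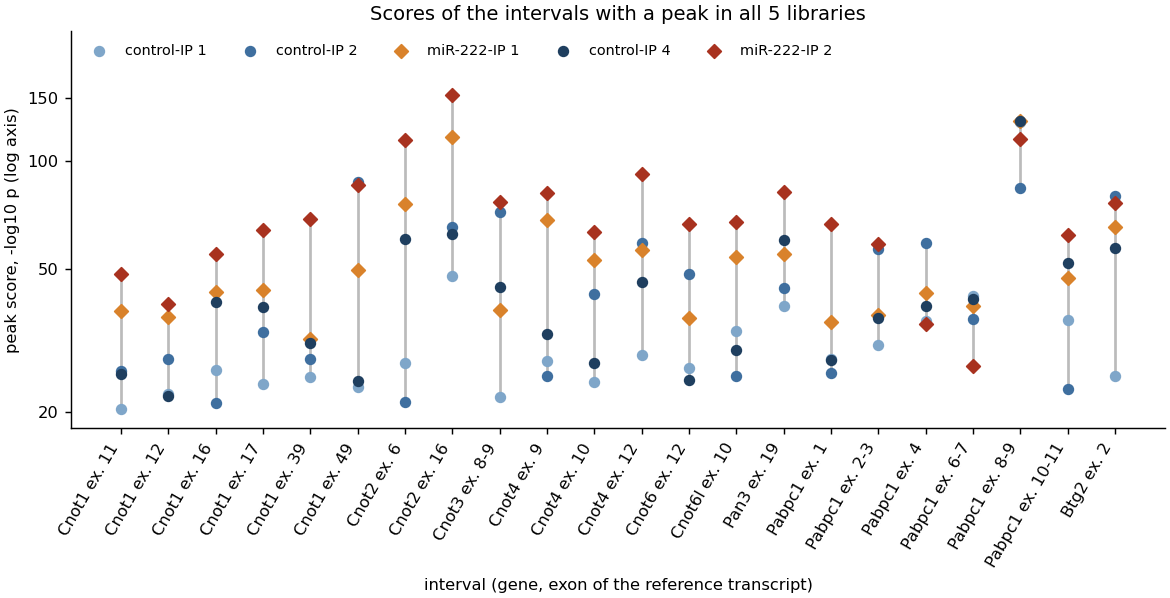
Scores as deposited (y axis, −log10 p on a log axis) of the 22 intervals called in all 5 libraries, with circles for control-IPs, diamonds for miR-222-IPs and a grey line from the lowest to the highest. miR-222-IP 2 was highest in 17 of the 22 and control-IP 1 lowest in 11.

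To compare the conditions, the scores of these intervals were divided by a factor per library, from the median of ratios over all 7698 exonic intervals called in all 5 libraries. The factors were 0.703, 0.972 and 0.989 for control-IP 1, 2 and 4 and 1.06 and 1.49 for the miR-222-IPs. The log2 ratio of the miR-222-IP to the control-IPs of its own experiment (control-IP 4 alone in experiment 2) had a median over the 22 member intervals of 0.14 in experiment 1 and 0.29 in experiment 2. Averaged over the experiments the median was 0.23, against 0.02 over all 7698 intervals, and 16 of 22 members (72.7%) were positive, against 52.4%. For comparison, the log2 ratio of control-IP 1 to control-IP 2, which are both controls, had a median of 0.13 over the same 22 intervals and of 0.10 over all, and an SD between the 22 intervals of 0.74. Without control-IP 4 only experiment 1 was left, and the median of the members was 0.08 over 24 intervals (−0.01 over all), against the 0.14 of experiment 1 above. With lists cut to equal length, 6 member intervals were left and their median was 0.02, as it was over all intervals, so that the difference was no longer seen.

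After scaling, the miR-222-IP lay above every control-IP of its experiment in both experiments in 8 of the 22 intervals, where 17.3% of all 7698 did. They were Cnot1 exons 11, 12 and 17, Cnot2 exons 6 and 16, Cnot4 exons 9 and 10, and Cnot6l exon 10. It lay below in 2 of 22, where 18.3% of all did, and both were in Pabpc1, at exon 4 and at exons 6 to 7. The largest mean log2 ratios among the members were 0.86 at Cnot4 exon 9, 0.81 at Cnot2 exon 6 and 0.70 at Cnot2 exon 16, and the smallest were −0.78 and −0.61 in Pabpc1. Without Pabpc1, 14 of 16 were positive, with a median of 0.26, whereas the 6 intervals of Pabpc1 had a median of −0.31 with 2 positive. This split of the list was made after the values were seen. Without miR-222-IP 1 only experiment 2 was left, with miR-222-IP 2 against control-IP 4, so that every interval had to lie above or below. The counts were then 15 above and 7 below of 22, where 50.8% and 49.2% of all intervals were. Without control-IP 2, with both experiments, they were 12 and 6 of 24, where 28.5% and 29.9% were. With lists cut to equal length, 1 of 6 lay above, where 16.4% of all did, and 0 below, where 17.0% did.

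For each of the 22 intervals on its own, condition was permuted inside each experiment, an exact two-sided test with 6 arrangements whose smallest p is 0.167. That p was reached by 6 of the 22 intervals, and no interval could pass 0.05 in this design. The sign of the median depended on the scaling, which shifts all intervals alike and therefore leaves the gap to them as it is. Without scaling the median was 0.70 for members and 0.50 for all, and with scaling to the total score it was −0.17 and −0.38.

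**Figure D4:**
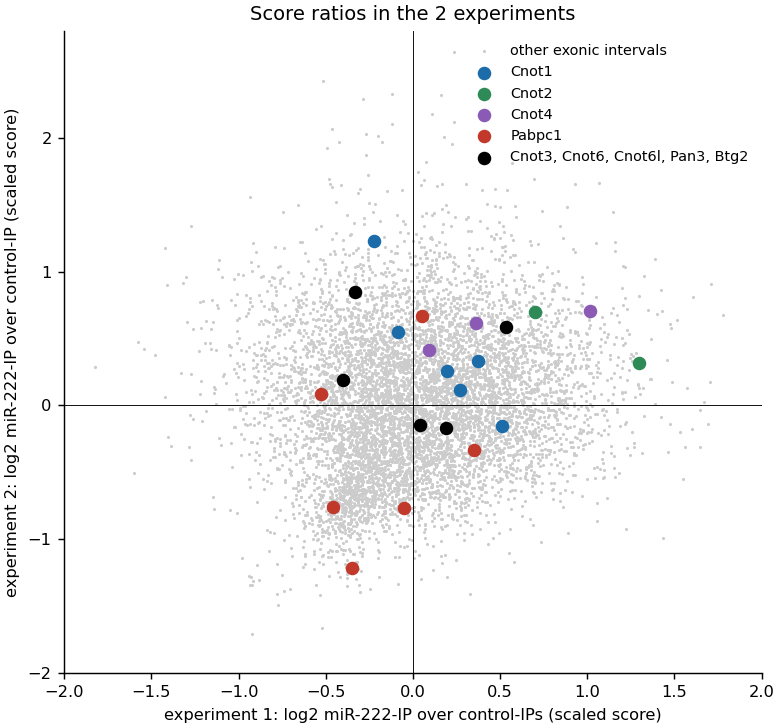
Log2 ratio of the scaled score of the miR-222-IP to the control-IPs in experiment 1 (x axis) and experiment 2 (y axis), with 1 large point per member interval and small grey points for the other exonic intervals in all 5 libraries. Cnot2 and Cnot4 points lie to the upper right, and 2 of the 6 Pabpc1 points lie below every control-IP in both experiments.

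Among all 84 intervals, 10 (11.9%) had a peak in both miR-222-IPs and in none of control-IP 1, 2 and 4, against 6.54% of all exonic intervals. They lay in Cnot1 at exons 7, 36, 40 and 41, in Cnot2 at exons 7, 10 to 11 and 15, in Cnot4 at exon 3, and in Cnot6l at exons 8 and 9. Scores there had a median of 26.7 in miR-222-IP 1 (20.2 to 40.5) and of 30.0 in miR-222-IP 2 (22.8 to 60.5), and none of the 10 held the miR-222 7-mer. At Cnot1 exon 40 the scores were 29.9 and 60.5. At Cnot2 exon 15 they were 40.5 and 29.1. Peaks of miR-222-IP 2 alone made up 16 intervals in 7 genes (19.0%, against 30.9%), and 2 intervals (2.38%, against 6.14%) had peaks in control-IPs alone, at Cnot3 exon 18 and Pabpc1 exon 5.

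These calls moved with list length. With the 10579 highest peaks of each list, as many as the shortest holds, 1 of 41 member intervals was called in both miR-222-IPs alone, where 1.35% of all were. In all 5 libraries 6 of the 41 were called (14.6%), against 28.7% of all, so that the members, which were above the share of all intervals with the lists as deposited, were below it here.

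Control-IP 3, whose peaks were wide, is given apart. Its list ends within chromosome 18 and has peaks on chromosomes of Btg2, Cnot2, Cnot6 and Pabpc1 and on none of the chromosomes of the other 6 members, for which a missing peak of this library gives no information. It had 1 peak for each of these 4 genes, with scores of 73.1, 131, 103 and 118, and a median width of 51184.5 bp. The peak over Cnot2 was 110272 bp wide and covered 100% of the gene, and the one over Pabpc1 covered 95.0%, so that no transcript part can be assigned in this library.

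Alignment of the 10 reference transcripts to other annotated transcripts, with at least 85% identity over 200 bp, found near-copies of Pabpc1, Cnot1 and Cnot3. Pabpc1 has the processed pseudogenes Gm8276 on chromosome 3 (94.8% identity over 1626 bp) and Gm16580 on chromosome 17 (97.1% over 1052 bp). Gm8276 scored 133, 161 and 146 in control-IP 1, 2 and 4 and 154 and 181 in the miR-222-IPs, and Gm16580 scored 142, 187 and 177, and 172 and 187. Each copy thus scored higher than every Pabpc1 interval of the same library. Cnot1 has Gm6158 on chromosome 14 (99.8% identity over 903 bp, Cnot1 exons 43 to 49), with 48.1, 118 and 92.6 in the control-IPs and 75.0 and 148 in the miR-222-IPs. Cnot3 has Gm9207 on chromosome 3 (98.8% over 1116 bp), with 20.9 and 45.9 in miR-222-IP 1 and 2 and no control peak. The copies Gm17752 of Cnot1 (87.7% identity) and Gm43973 of Pabpc1 (94.8%) had no peak.

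Exons matched whole by a processed pseudogene that had a peak of its own were under fewer peaks in Cnot1 and Cnot3. In Cnot1, 1 of the 5 exons from 44 to 48, matched by Gm6158, lay under a peak in any library, against 30 of the other 44. The other 44 include exons matched by Gm17752, which had no peak and aligns from exon 17 to exon 39. In Cnot3 it was 0 of the 6 exons from 12 to 17, against 7 of the other 12. In Pabpc1, 10 of the 12 exons from 3 to 14 lay under a peak, against 3 of 3. This comparison was chosen after the values were seen and was not tested. Reads of a gene and of a near-identical copy cannot be told apart at the level of the lists, so the scores of these parts of Cnot1, Cnot3 and Pabpc1 are uncertain.

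**Figure D5:**
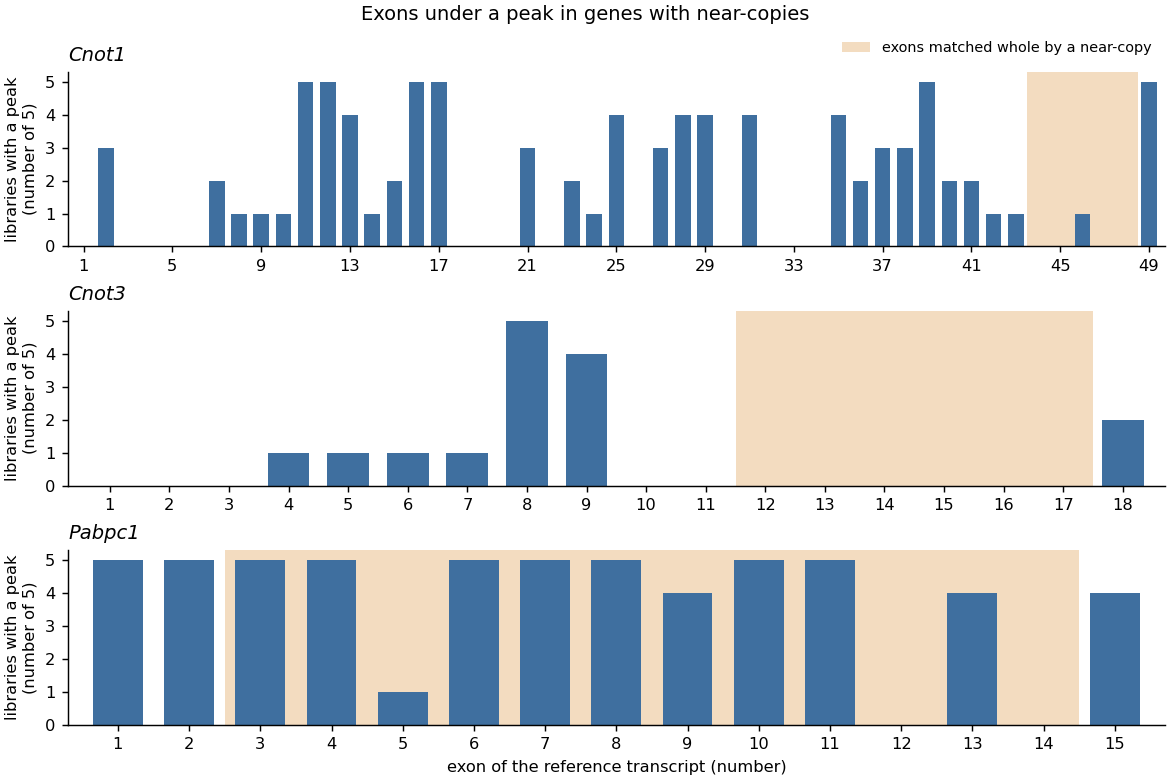
Number of the 5 libraries with a peak over each exon (y axis) by exon number of the reference transcript (x axis). Shading marks exons matched whole by a processed pseudogene that had a peak of its own. Cnot1 exons matched by Gm17752, which had no peak, are not shaded. In Cnot1 a single shaded exon, 46, has a peak, and in Cnot3 no shaded exon has one.

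Other motifs were searched in the exonic sequence of the 84 intervals on the strand of the gene, beside intervals with a like number of exonic bp (within 20%). Other intervals over genes of both strands were left out, so that 37547 intervals were searched. Seed matches are the complement of bases 2 to 8, and a match is a description, not a binding site. The miR-222 7-mer ATGTAGC was in 3 intervals (3.57%, against 1.63%). The muscle miRNA matches were in 4 for miR-206 (ACATTCC, 4.76%, against 2.42%) and in 2 for miR-133b (GGACCAA, 2.38%, against 2.48%). For the other families the counts were 6 for miR-29 (TGGTGCT, 7.14%, against 4.18%), 2 each for miR-21 (ATAAGCT, 2.38%, against 1.36%) and miR-30 (TGTTTAC, 2.38%, against 2.57%), and 0 for let-7 (CTACCTC, against 2.63%). The AU-rich pentamer ATTTA, a core of the elements bound by Zfp36 proteins, was in 29 (34.5%, against 21.03%) and in all 10 genes.

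In the 3'UTR of Pan3 a miR-133b match and a miR-21 match lay under peaks of all 5 libraries, from 39.4 to 81.7. They are shown with the match in capitals as the muscle miRNA match with peaks in both conditions and its neighbour.
Pan3, miR-133b match, chr5:147547672-147547678, plus strand: ttttcatttgtGGACCAAtgttatgtgaa
Pan3, miR-21 match, chr5:147547147-147547153, plus strand: gtccactttttATAAGCTttaaaatgatt
A miR-206 match in the 3'UTR of Cnot1, followed by A, lay under peaks of the 2 miR-222-IPs, at 49.5 and 86.0, whereas the control-IP peaks of that interval ended before it.
Cnot1, miR-206 match, chr8:95720030-95720036, minus strand: cgacatccatgACATTCCaaagattagca

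Of the 39 further genes of deadenylation, decapping and poly(A) binding, 34 had an exonic peak and 18 had one in each of the 5 libraries. In 15 genes a single interval was called in all 5 libraries. By library, 19, 31 and 28 genes had a peak in control-IP 1, 2 and 4 and 30 and 33 in the miR-222-IPs. Of the 10289 protein-coding genes with an exonic interval, 4729, 7680 and 6592 had one in control-IP 1, 2 and 4, and 7320 and 9813 in miR-222-IP 1 and 2. Cnot9, another CCR4-NOT subunit, had 45.5, 77.8 and 85.6 in the control-IPs and 76.0 and 122 in the miR-222-IPs. Ddx6, the helicase that CCR4-NOT binds, had 53.4, 112 and 162, and 134 and 213. Tob1, a relative of Btg2, had 29.7, 50.2 and 42.4, and 61.6 and 169.8, and Larp4, which binds poly(A), had 24.99, 43.3 and 51.8, and 190.1 and 71.8. The highest scores of Zfp36, Zfp36l1 and Zfp36l2, which bring CCR4-NOT to mRNAs, were 152, 137 and 136, each in a control-IP. Pan2, the nuclease that Pan3 serves, had 1 peak, of 24.5 in control-IP 2.

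Of 10 skeletal myocyte markers all had a peak, 7 of them in each of the 5 libraries, Mef2c reaching 194. Markers of other cell types were present too. All 3 haematopoietic markers had peaks, Adgre1 up to 236, Ptprc up to 142 and Cd68 up to 139, and so had 2 of 3 endothelial markers, 1 of 3 fibro-adipogenic markers and 1 of 3 Schwann markers. Pax7 and Myf5, which mark undifferentiated progenitors, had no peak, while Myod1 had one in each library. The part of other cell types in the member peaks was not tested.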

How the data were processed

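RISC-IP RNA of MSC myocytes was sequenced in 4 control-IP and 2 miR-222-IP libraries from 2 experiments. Per the study's methods, reads were aligned to mm10 with SOAPSplice, converted with bedtools and passed to macs2 at default parameters in each library, whose version is not given in the sources used here. The authors deposited the −log10 p of each peak over 20. Read numbers are unknown, so no counting interval is given, and counts were not modelled.

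Peaks of 5 libraries were merged where they overlapped or touched (Python 3.11.15, numpy 2.4.6, pandas 2.3.3) and assigned to GENCODE M21 exons. An interval took the highest score of each library. Reference transcripts were the longest with a coding length close to the principal one. Sequence came from GRCm38 (pysam 0.24.0), near-copies from blastn 2.17.0, and merging was checked with bedtools 2.31.1 and tested on simulated data, where all 7 checks passed.

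Groups came from the condition labels and experiments served as blocks, while replicate numbers follow accession order. The members and lists were chosen with earlier results of these data known. Described in full were, for each member, the interval with the highest score, those called in both miR-222-IPs alone (by their range), and those with the miR-221/222 7-mer. Of the other genes of the pathway, the 8 with a peak in all 5 libraries and the highest scores were to be named, of which 1 is not reported here, and Pan2 was added after its value was seen. Alternatives covered threshold, merging, exon overlap, scaling, missing libraries, blocks, list length and seed length. The omission of Pabpc1 or Cnot1, the run of A and the exons in near-copies were added after the data were seen.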

Additional observations from a re-analysis of the deposited data

Results flagged for a closer look

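Library and group differences below are given as values, without an explanation. Among the 4 control-IPs, control-IP 3 stood apart in the median width of its member peaks, 51184.5 bp against 320.5 to 336 bp in the others, and in their median score, 111 against 27.8 to 31.9. Chance flags about 1 in 20 such groups of 4.

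In 3 member intervals the miR-222-IP lay beyond the control-IPs one way in experiment 1 and the other way in experiment 2 after scaling, and the difference was not tested. At Cnot1 exon 16 the log2 ratio was 0.51 in experiment 1 and −0.15 in experiment 2, a difference of −0.66. At Cnot6 exon 12, in the 3'UTR, it was −0.33 and 0.85, a difference of 1.18. At Pabpc1 exons 2 to 3 it was −0.53 and 0.09, a difference of 0.62.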

How the results depend on the processing

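Counts of member intervals are given with the share over all exonic intervals in brackets, and did not always move with it. At equal list length the share called in all 5 libraries fell for members and rose over all intervals. With scores over 50 there were 58 member peaks (258 as reported), 1 of 32 intervals in all 5 libraries (15.2% of all), 3 in both miR-222-IPs alone (5.47%) and 2 with the miR-222 7-mer. That 1 interval had a log2 ratio of −0.17 and lay neither above nor below the control-IPs, so that both counts were 0. With at least 50% of an interval exonic, 5 of 17 lay above (16.9%) and 0 below (17.6%). With control-IP 3 included, whose list reaches 4 of the 10 genes, 4 of 62 intervals had a peak in every library (6.68%). Of these 4, 1 lay above (7.37%) and 2 below (13.5%), and the median log2 ratio was −0.39 (−0.02). Without scaling 13 of 22 lay above (50.4%) and 0 below (2.57%), and with total-score scaling 2 lay above (1.87%) and 4 below (35.0%). A missing library set to its lowest listed value gave 14 of 84 above (10.2%) and 27 below (37.9%), with a median of 0.01 (−0.13). At equal list length 6 of 41 intervals were in all 5 libraries (28.7%) and 1 in both miR-222-IPs alone (1.35%), and the median was 0.02 (0.02). With no replicate block, in place of pairing within experiments, 5 lay above (10.7%) and 1 below (13.2%), and the median stayed at 0.23. Without Pabpc1 0 of 16 lay below (18.3%). Without Cnot1 6 of 56 were in both miR-222-IPs alone (6.54%) and 5 of 16 lay above (17.3%). The 6-mer of bases 2 to 7 was in 6 intervals (6.33% of intervals with a like number of exonic bp).

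Leaving out 1 library at a time gave 176 to 230 member peaks, 22 to 31 intervals in all remaining libraries (20.0% to 28.5%), and medians of 0.08 to 0.28. Without a control-IP, 12 to 15 were in both miR-222-IPs alone (7.23% to 13.6%). Over 22 to 31 intervals, 9 to 15 lay above (24.8% to 50.8%) and 4 to 7 below (24.7% to 49.2%). These omissions leave fewer libraries to exceed, and without control-IP 4 or either miR-222-IP only 1 experiment was compared. Merging within 100 bp moved no count beyond 1.5 times. The unknown depth limits every count of peaks, and a library with a longer list has more chances of a call.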

Other observations

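Inside the 10 genes, 6 further merged intervals overlapped no exon of the gene and were left out of the counts. One of them, in an intron of Cnot6 (chr11:49678745-49679148) and 772 bp from the nearest Cnot6 exon, had peaks in all 5 libraries, with 107, 100.2 and 115 in control-IP 1, 2 and 4 and 100.1 and 87.4 in miR-222-IP 1 and 2. These exceed every exonic score of Cnot6 in the same libraries, 66.6 at most, and the interval overlaps an exon of the annotated gene Gm12191. Another, in Cnot7, overlaps an exon of Vps37a and had 28.9, 29.3 and 28.3 in control-IP 2, miR-222-IP 1 and miR-222-IP 2. The other 4 lay in Cnot2, Cnot6l and Pan3 with peaks in 1 or 2 libraries, of 20.3 to 43.5.

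Larp4 had 190.1 in miR-222-IP 1 and at most 71.8 in the other 4 libraries, while Tob1 had 169.8 in miR-222-IP 2 and at most 61.6 in the others, so that the highest library differed between these genes.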
